A study of Mus musculus with 7 samples.

Results

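The accessible regions of the untreated mouse pancreatic epithelium were described here: 140286 regions on chromosomes 1 to 19 and X, out of 580456 in the 4 epithelial peak lists analysed. All regions of the untreated list on these chromosomes were taken, whatever their strength. The assay was ATAC-seq, in which Tn5 transposase cuts open DNA and tags it for sequencing. The cells were epithelial cells purified from dissociated pancreata of wild-type C57BL/6J mice that had received no treatment. The other 3 lists came from wild-type C57BL/6J mice 1, 7 and 28 days after caerulein, a cholecystokinin analogue that provokes acute pancreatitis, and 3 DCLK1-positive libraries, from Dclk1-DTR-ZsGreen mice, were not used here. Each group was 1 library; how many animals went into it is not given in the sources used here. No value below therefore has a replicate error, and comparisons between genes are descriptions of 1 library.

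Most epithelial cells of the pancreas are acinar cells, which make and secrete digestive enzymes. Ductal cells line the tubes that carry those enzymes away, and endocrine islet cells secrete hormones into the blood. Acinar identity is kept by transcription factors such as PTF1A, a basic helix-loop-helix protein that works with RBPJL and binds an E-box joined to a TC-box, and by NR5A2, GATA4, GATA6 and BHLHA15 (MIST1). Open regions at a gene's start hold its promoter, and many open regions away from genes are enhancers. In a bulk library, fewer cells of a type and less open chromatin per cell cannot be told apart.

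Promoter sequences of marker and enzyme genes are shown first, because the accessibility of this tissue's own genes is the subject. All coordinates are on GRCm38. The sequences are RefSeq's, of GRCm38.p6, 5′ to 3′, and end on the base before the annotated start. Capitals mark the TATA box (TATAA, positions -40 to -16), a first E-box form (CACCTG) or a further form of it (CAGCTG), or the TC-box (TTTCCC). The TATA box was sought on the printed strand and the others on both, so the Cpa1 match is on the opposite strand. The longer stretches upstream of the acinar markers Cpa1 (carboxypeptidase A1) and Ptf1a were the following.
Cpa1 (chr6:30638968-30639217, plus strand): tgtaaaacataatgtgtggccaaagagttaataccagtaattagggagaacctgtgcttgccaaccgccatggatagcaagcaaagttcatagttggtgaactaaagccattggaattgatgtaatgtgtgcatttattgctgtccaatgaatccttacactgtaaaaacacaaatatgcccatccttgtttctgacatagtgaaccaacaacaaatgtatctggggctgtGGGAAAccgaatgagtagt
Ptf1a (chr2:19445413-19445662, plus strand): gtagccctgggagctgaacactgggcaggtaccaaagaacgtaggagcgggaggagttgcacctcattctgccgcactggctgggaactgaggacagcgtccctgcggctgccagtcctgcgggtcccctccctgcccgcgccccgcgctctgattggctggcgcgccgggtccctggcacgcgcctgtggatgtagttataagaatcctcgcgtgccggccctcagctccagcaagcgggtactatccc
The 300 bases around the Cpa1 start were 43.7% G+C with 2 CpG, and those around the Ptf1a start were 67.3% G+C with 23 CpG. Both promoters lay inside an accessible region. The starts of Krt19 and Sox9 are not in the promoter table used.

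The next stretches, each 100 bases, set 4 acinar enzyme or granule genes beside the keratin gene Krt8 and the insulin gene Ins1.
Pnlip (chr19:58670265-58670364, plus strand): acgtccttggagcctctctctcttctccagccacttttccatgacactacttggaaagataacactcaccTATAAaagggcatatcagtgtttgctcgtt
Gp2 (chr7:119459273-119459372, minus strand): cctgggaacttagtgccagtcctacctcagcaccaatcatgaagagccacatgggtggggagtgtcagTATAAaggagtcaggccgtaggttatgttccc
Cela1 (chr15:100687921-100688020, minus strand): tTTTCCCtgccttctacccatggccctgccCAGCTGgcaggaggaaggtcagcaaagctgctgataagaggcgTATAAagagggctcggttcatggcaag
Ctrb1 (chr8:111691011-111691110, minus strand): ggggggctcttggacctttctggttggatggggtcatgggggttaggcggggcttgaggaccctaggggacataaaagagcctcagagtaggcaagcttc
Krt8 (chr15:102004343-102004442, minus strand): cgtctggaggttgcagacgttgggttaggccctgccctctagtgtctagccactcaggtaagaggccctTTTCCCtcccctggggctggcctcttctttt
Ins1 (chr19:52264197-52264296, plus strand): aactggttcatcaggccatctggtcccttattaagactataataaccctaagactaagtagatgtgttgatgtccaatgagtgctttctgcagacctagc
TATAA began at position -30 in Pnlip (pancreatic lipase), -32 in Gp2 (a zymogen granule membrane protein) and -27 in Cela1 (a chymotrypsin-like elastase). The Ctrb1 (chymotrypsinogen B1) stretch held none of the marked motifs. All these promoters except that of Ins1 were overlapped by an accessible region.

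The untreated regions covered 70.3 Mb. Their width had a median of 306 bp, quartiles of 188 and 568 bp and a range of 146 to 19804 bp. The fold deposited by the authors compares the pileup of reads at a region's summit with a background. The same background of 5.07 made 100% of pileups whole numbers, so no correction for local background was visible in the folds. Fold had a median of 4.78, quartiles of 3.62 and 9.06 and a highest value of 1261. The lowest fold was 2.47, from a pileup of 14. Fold exceeded 10 in 22.8% of regions and 50 in 4.35%. Width and fold rose together over the 140286 regions (Spearman's rho 0.88); both come from the same reads, so this is a description only.

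Most regions lay away from gene ends. A summit lay within 1 kb of an annotated end of a protein-coding gene in 20755 regions, 14.8% (exact 95% interval 14.6 to 14.98%, counting error only). Inside a gene but away from its ends were 72051 regions (51.4%), outside genes within 50 kb were 33309 (23.7%) and beyond 50 kb were 14171 (10.1%). Distal regions, all those away from gene ends, thus made up 85.2%. The gene-end windows held 2.98% of the sequence up to the last gene of each chromosome, and region density was 265 per Mb in them against 46.8 per Mb elsewhere.

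Gene-end regions were the stronger and wider class, with a median fold of 11.2 and a median width of 669 bp. The other classes had median folds of 4.45 to 4.78 and median widths of 275 to 297 bp. Among the 1000 regions of highest fold, 80.8% (78.2 to 83.2%) lay at a gene end. Among the 1000 widest, 51.3% (48.2 to 54.4%) did, and 36.4% lay inside a gene. The sets shared 169 regions. The share at gene ends was 8.87% to 10.7% in each of the 8 lower deciles of fold, 18.2% in the ninth and 55.1% in the highest.

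**Figure D1:**
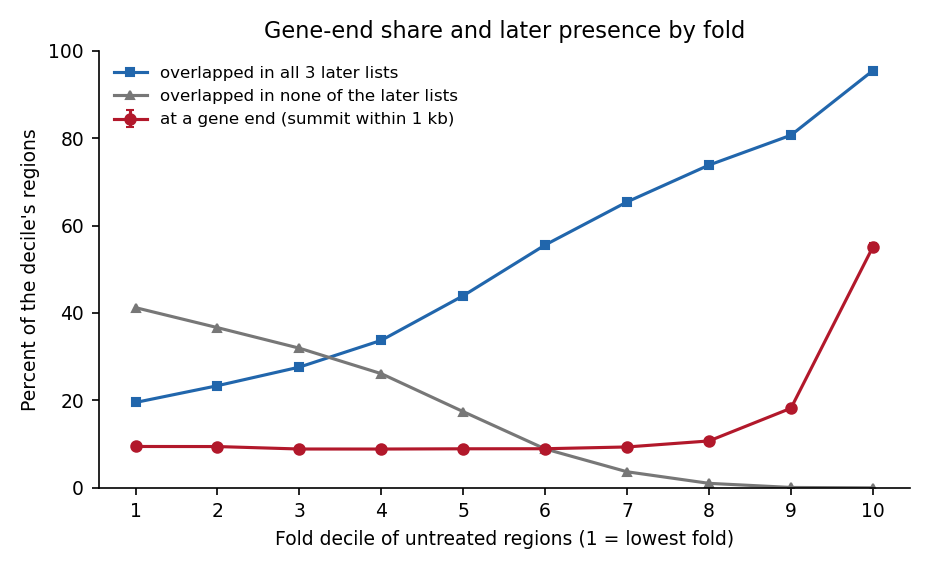
Percent of regions (vertical axis) in each decile of fold (horizontal axis, lowest to highest) that lay at a gene end (circles, with exact 95% intervals), that were overlapped in all 3 later lists (squares) or in none (triangles). The gene-end share stays near 9% up to the eighth decile and reaches 55.1% in the highest, while the share found in all later lists climbs from 19.5% to 95.5%.

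Gene ends were not alike. Among 5586 genes of 5 kb or more with 1 listed start, 68.0% (66.8 to 69.3%) had a region at the start and 15.8% (14.8 to 16.7%) at the far end. The median fold of those regions was 40.04 at starts and 5.93 at far ends. Both ends were found open in 13.6%.

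The 3 strongest regions fell on repeated RNA genes or outside coding genes. The first, with a fold of 1261 (Poisson 95% interval 1233 to 1289 from its pileup of 7650), covered Rn18s-rs5, a pseudogene of the 18S ribosomal RNA, and AY036118 at chr17:39842897-39848939. The second, with a fold of 405, overlapped the long noncoding RNA gene Gm36876 at chr11:109011563-109012204. The third, at chr3:5860345-5860899 with a fold of 308, and the ninth, at chr2:98666157-98667390 with a fold of 197, had no protein-coding gene within 50 kb. Whether these lie in repeats, and whether repeats were masked, was not tested, so their folds are uncertain too. Ribosomal RNA genes have many near-identical copies, so the fold at a single listed copy is uncertain.

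Of regions with a protein-coding gene within 50 kb, the 10 strongest had folds of 190 to 211. They were a region inside Cdk8 (a kinase of the Mediator complex, fold 211, 199.5 to 223), one inside Clec11a (a secreted growth factor, 206) and regions at the ends of Dnpep, Samd4b, Mtmr4, Hjurp, Sf1, Camta1, Cnot3 and Rab8a. Dnpep encodes an aminopeptidase, Sf1 a splicing factor, Cnot3 a subunit of the CCR4-NOT deadenylase and Rab8a a GTPase of vesicle traffic. The intervals of these 10 overlap, so their order is within counting error. None of the 10 genes was in the acinar, ductal or endocrine lists. Each of the 1000 strongest regions was overlapped in the lists of days 1, 7 and 28.

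The 10 widest regions lay over 6 loci. Regions covered 100% of the span of Egr1, 98.9% of Klf6, 97.9% of Mroh2a and 96.1% of Sfi1. The widest, 19804 bp at chr19:5833188-5852991 with a fold of 95.9, covered Neat1, the noncoding RNA that builds nuclear paraspeckles, and reached the coding gene Frmd8; the adjoining 11690 bp region also lay on Neat1. The gene Sfi1, for a centrosomal protein, carried 4 of the 10 widest regions, 9728 to 18073 bp each, with folds of 40.9 to 70.0. The others lay at Mroh2a (13910 bp, fold 14.7), Egr1 (9746 bp, 112), Mef2d (9241 bp, 106) and Klf6 (8789 bp, 142). Egr1, Mef2d and Klf6 encode transcription factors, and Egr1 and Klf6 are quickly induced by growth factors and stress. The Mroh2a region had a far lower fold than the rest. Whether the Sfi1 regions lie in repeats was not tested.

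The next regions in width, named after their values were seen, lay at Sfi1 (8154 bp), Zfp36 (8102 bp), Cpt1a (7805 bp), Junb (7778 bp), Mafk (7763 bp), Fosb (7692 bp) and Atf3 (7651 bp), with folds of 20.8 to 121. Junb, Mafk, Fosb and Atf3 encode leucine zipper transcription factors, Zfp36 an RNA-binding protein and Cpt1a an enzyme of fatty acid oxidation. The acinar genes Ctrb1 (7233 bp, fold 69.7) and Cela1 (6873 bp, 47.9) were among the 30 widest. Klk1, a tissue kallikrein, had a 7553 bp region in untreated epithelium that no day 1 region overlapped.

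The densest neighbourhoods held 3 to 12 protein-coding genes each. Density was the number of summits in a gene's span plus 50 kb on each side, per kb. Over 21631 protein-coding genes its median was 0.0827 per kb, with quartiles of 0.0239 and 0.171 and a 99th percentile of 0.431. The densest neighbourhood, at Baiap2 (an actin regulator), held 114 regions, or 0.683 per kb. Those of Reep6 (0.639), Slc38a3 (0.611, a glutamine transporter), Zbtb7a (0.598), Hoxa6 (0.597), Cbarp (0.573), Phlda3 (0.573), Hjurp (0.564), Grasp (0.534) and Vps37b (0.533) followed.

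These neighbourhoods differed in strength. The Hoxa6 window, which holds 10 genes of the HoxA cluster that pattern the body axis, had 62 regions whose highest fold was 24.1, whereas the other 9 windows reached folds of 70.0 to 195. The Hjurp window, which spans the Ugt1a glucuronosyltransferase genes and Mroh2a, had the largest open length of the 10, with 82.8 kb of its 119 kb inside regions. Of its 67 regions 18, 21 and 16 were overlapped at days 1, 7 and 28, where regions covered 32.7, 29.2 and 16.0 kb. Over all untreated regions the shares overlapped were 62.6, 68.0 and 72.9%.

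Regions were missing over large gene families. No region fell within 50 kb of 3056 genes (14.1%), and of these 876 were olfactory receptor genes, out of 1110, and 298 were vomeronasal receptor genes, out of 353. Both families are used by sensory neurons. A region lay at an end of 0.811% of olfactory receptor genes and of 70.9% of the genes outside both families.

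The 4 identity genes all had a gene-end region, as 66.1% of all protein-coding genes do. Their accessibility therefore cannot check the labelled cell type. The median gene-end fold over all genes with such a region was 34.6. Cpa1 (25.2) and Krt19 (23.6) were below it, and Ptf1a (46.0) and Sox9 (54.2) above it. Cpa1 (chr6:30639218-30645361) had 27 regions within 50 kb. Its strongest gene-end region spanned 1522 bp with a fold of 25.2 (21.4 to 29.5), with its summit at -503 bp from the left end, and further regions continued through the gene to about 11 kb from its left end. The highest fold in the window, 44.3, was at the far edge, inside another gene.

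Ptf1a (chr2:19445663-19447501) also had 27 regions. The one at its start spanned 2295 bp with a fold of 46.0 (40.7 to 51.7). Distal regions of high fold had summits at -14320 bp (fold 27.8), 6729 bp (21.4) and 44825 bp (28.2) from the left end. The last of these lay inside another gene. All were found in each later list.

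The ductal markers had regions of the same order. Krt19, a keratin of ductal cells, is on chr11:100140810-100145926 and had 26 regions, the strongest 2376 bp wide at the gene's right end with a fold of 23.6 (19.9 to 27.7). A run of regions lay 14864 to 28374 bp from its left end, with folds up to 22.2. The strongest of these, at 27494 bp (20.1) and 28374 bp (22.2), were nearer to another coding gene. Sox9, a transcription factor of ductal and progenitor cells (chr11:112782210-112787757), had 18 regions and a 2242 bp region over its left end with a fold of 54.2 (48.5 to 60.4).

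**Figure D2:**
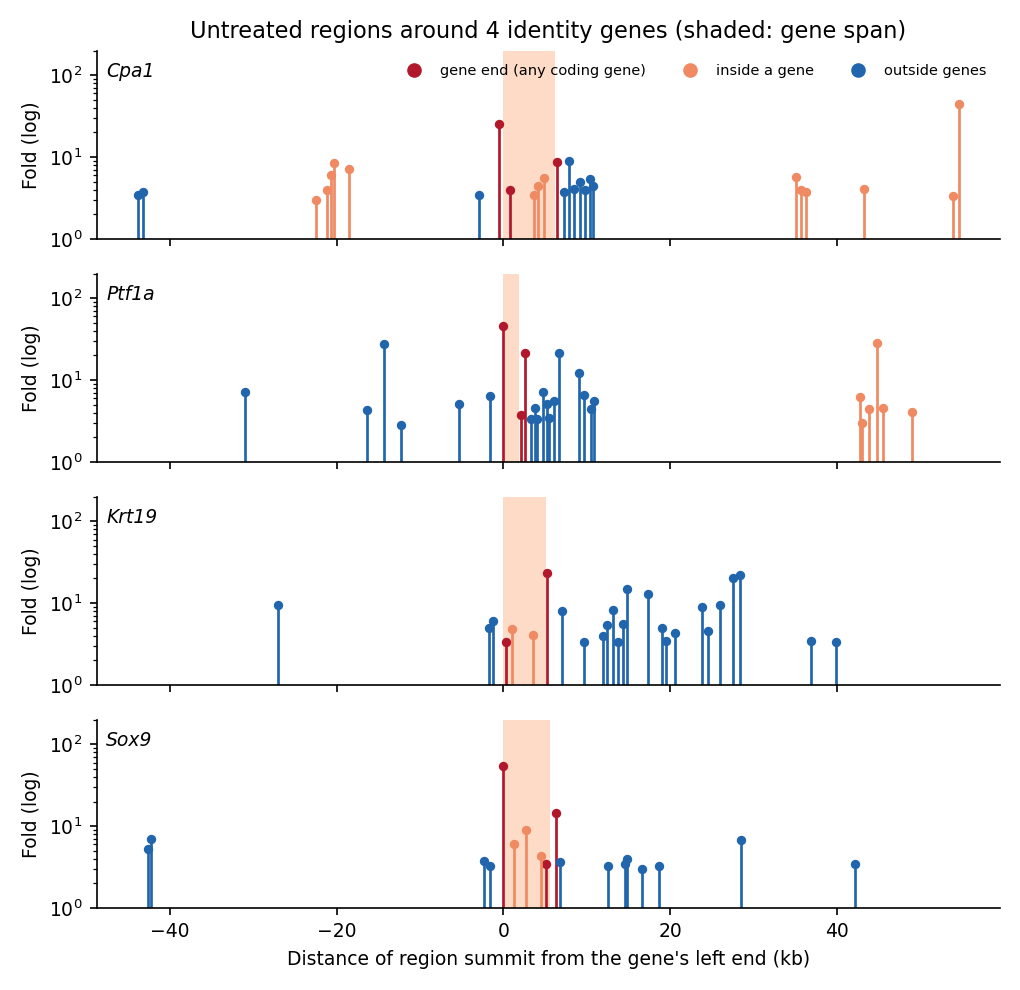
Fold (vertical log axis) of every untreated region around Cpa1, Ptf1a, Krt19 and Sox9, against the distance of its summit from the gene's left end in kb (horizontal axis); the shaded band is the gene. Each gene has a region at its end with a fold of 23.6 to 54.2, and Cpa1 and Ptf1a each have 27 regions in view.

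Acinar enzyme genes stood in dense neighbourhoods but had moderate gene-end folds. A region lay at an end of 22 of 26 enzyme and granule genes (66.1% of all protein-coding genes have one). Their gene-end folds ranged from 7.74 to 69.7 with a median of 23.2, below the median of 34.6 over all coding genes with such a region. Only summits within 1 kb of an end count, so a broad region over a start can be missed. A 6873 bp region of fold 47.9 lay over the start of Cela1, but its summit was 4766 bp from an end. Cela1 was thus scored 13.2, from another region. Regions per kb had a median of 0.270 against 0.0827 over all genes, and 23 of 26 were above that all-gene median, as 50.0% of all genes are. When regions less than 500 bp apart were merged, the enzyme median fell to 0.117, against 0.125 for ductal, 0.128 for acinar transcription factor and 0.0602 for all genes. Neighbouring family members share windows, so these values are not independent.

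The highest gene-end folds among the enzymes were at Ctrb1 (69.7, 63.2 to 76.7), Cuzd1 (63.1, a zymogen granule protein) and Pnliprp2 (53.9, a lipase-related protein). Cel, the carboxyl ester lipase, had 42.7, Prss2, a trypsinogen, had 33.4 and Gp2 had 29.3. The densest windows were those of Pla2g1b, the pancreatic phospholipase (0.460 per kb), Cela1 (0.441) and Cel (0.428). No summit lay within 1 kb of an end of Prss1, Prss3, Cela3a or Clps, and Amy2a5 had 4 regions in its window. Clps, the colipase gene, was nonetheless 82.9% covered by a region, whereas regions covered 0% of Prss1, Prss3 and Cela3a. Trypsinogen, elastase 3 and amylase genes have near-identical copies, so reads could be lost or split between them and their low values are uncertain.

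Enzyme genes, like ductal ones, were also covered along much of their length. Regions covered at least 50% of the span in 12 of 26 enzyme genes, against 3.81% of all protein-coding genes, a measure chosen after the data were seen. Coverage was 100% of the 4501 bp of Ctrb1, 98.6% of Cela1, 96.2% of Cela2a and 99.8% of Sycn (syncollin, a granule protein). The median was 46.1% for enzymes and 3.74% for all genes. Short genes are more easily covered: among genes of 1 to 20 kb, 12 of 24 enzyme, 9 of 17 ductal and 3 of 5 acinar transcription factor genes were at least 50% covered, against 7.03% of all genes.

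The acinar transcription factor genes were accessible at their ends in all 12 cases, against 66.1% of all protein-coding genes. Gene-end folds ran from 5.27 at Mecom to 87.3 at Gata6, with a median of 43.7, and density had a median of 0.235 per kb with 11 of 12 above the all-gene median. Nr0b2, a nuclear receptor corepressor, had 76.8, Tcf3, a partner of PTF1A, had 74.5, Xbp1, a factor of the unfolded protein response, had 64.8 and Bhlha15 had 55.4. Rbpjl had 41.5, Nr5a2 27.2 and Gata4 27.0. Bhlha15 was covered over 94.2% of its span, and 63 regions lay around Gata4.

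Ductal and general epithelial genes were open as well. A gene-end region was found at 24 of 27, against 66.1% of all protein-coding genes. The median fold was 31.0, below the 34.6 of all genes with such a region, and the range was 5.11 to 103.3. The highest folds were at Elf3 (103.3, 95.4 to 112) and Clu (92.4), an epithelial transcription factor and the chaperone clusterin, then Krt8 (85.2), Cdh1 (71.3, E-cadherin) and Epcam (67.1). Many of these, including Krt8, Krt18, Cdh1 and Epcam, are used by all pancreatic epithelial cells. Among genes of duct identity and fluid transport, Sox9 had 54.2, Krt19 23.6, Car2 21.3, Aqp1 9.56, Cftr, the chloride channel, 9.39 and Aqp5, a water channel, 5.60. No summit lay within 1 kb of the outermost ends of Spp1, Slc4a4 or Prom1, but Slc4a4 and Prom1 had regions at a listed start inside the span, with folds of 29.2 and 35.8. Regions covered 0% of Spp1. Density had a median of 0.180 per kb, with 22 of 27 above the all-gene median.

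Endocrine genes as a list were near all genes in density but not in gene-end fold, and the insulin, glucagon and somatostatin genes had few regions. A gene-end region was found at 16 of 30 (53.3%, against 66.1% of all genes), with a median fold of 11.4 against 34.6. The median density of 0.0802 per kb was close to that of all genes, with 15 of 30 above it. Ins1 and Slc30a8, the insulin granule zinc transporter, had no region within 50 kb. Ins2 had 4, Gcg (glucagon) 2 and Sst (somatostatin) 2, none at a gene end. Ghrl (ghrelin) had 18 regions in its window. Ppy, the pancreatic polypeptide gene, had 22 and a gene-end fold of 4.61 (3.10 to 6.64).

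Several endocrine factor genes had high gene-end folds. Mafa had 89.8 (82.4 to 97.7), Pdx1 43.5, Isl1 35.1 and Nkx6-1 33.8. Pdx1 is also used by acinar and progenitor cells. Neurod1 and Neurog3 had no gene-end region.

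**Figure D3:**
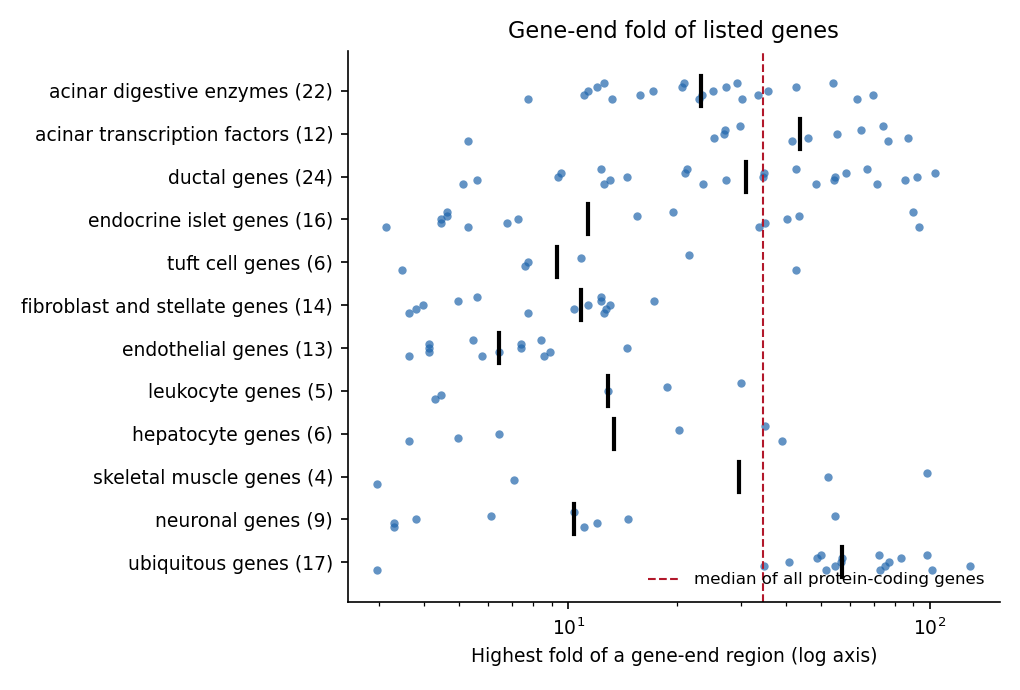
Highest fold of a gene-end region (horizontal log axis) for each listed gene that has one (points; number in brackets), by list, with the list's median (black bar) and the median of all protein-coding genes (dashed line, 34.6). Acinar transcription factor genes (median 43.7) and ubiquitous genes (57.2) lie to the right of the line, and endothelial genes (6.43) farthest to the left.

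A gene-end fold of 50 or more was found in 23.3% of all protein-coding genes. It was reached by 13 of 18 ubiquitous genes, 8 of 27 ductal, 5 of 12 acinar transcription factor, 3 of 26 acinar enzyme and 2 of 30 endocrine genes. It was also reached by 2 of 10 skeletal muscle and 1 of 10 neuronal genes, and by none of the tuft, fibroblast, endothelial, leukocyte and hepatocyte lists. In neither muscle gene was that fold at the listed start. The shares among acinar enzyme and endocrine genes were below the background, and those among ductal and muscle genes near it.

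Genes of other cell types gave the level against which these values can be read. Of 16 leukocyte genes 5 had a gene-end region (folds 4.28 to 30.2); Ptprc and Cd3e, named after their values were seen, had none, and Ms4a1 had no region in its window. Of 14 endothelial genes 13 had one, but with folds of 3.62 to 14.5 and a median of 6.43, and of 16 fibroblast and stellate genes 14 had one, with folds of 3.62 to 17.3. Of 10 neuronal genes 9 had one, with folds of 3.30 to 54.5 and a median of 10.4. That share was larger than among acinar enzymes, but of the alternatives only the 2 kb window kept this order. At gene starts alone the share was 66.7% for neuronal genes against 81.8% for enzymes. With the stricter threshold it was 70.0% against 84.6%, and within 500 bp 70.0% against 80.8%. Of 10 skeletal muscle genes 4 had one (folds 2.97 to 98.0, median 29.7), and of 12 hepatocyte genes 6 (3.62 to 39.0, median 13.3). The highest muscle folds, 98.0 at Mylpf (named after its value was seen) and 52.2 at Ckm, were not at the listed starts. There Mylpf had no region and Ckm a fold of 4.45. Some enzyme genes were alike: Amy2b had 23.1 but 3.46 at its start, and Cela1 13.2 but 3.13. Amy2a5 had 7.74 and no summit within 1 kb of its start. Of 10 tuft cell genes 6 had one, including the tuft marker Dclk1 (21.6). Their part in the regions of the epithelial list was not tested.

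Density in these lists had medians of 0.168 per kb for tuft, 0.103 for fibroblast, 0.0929 for endothelial, 0.0828 for leukocyte, 0.0763 for hepatocyte, 0.0582 for neuronal and 0.0521 for skeletal muscle genes. The extremes were Egfl7 (0.457) and Kdr (0.0342) among endothelial genes, Pdgfrb (0.329) and Lum (0.0187) among fibroblast genes, and Trpm5 (0.382) and Chat (0.0190) among tuft genes. In the liver list Hnf4a (0.349) and Foxa2 (0.250), factors that pancreatic cells also use, were the densest, and Serpina1a had no region. Ckm (0.317) and Myh4 (no region) marked the ends of the muscle list, Slc17a7 (0.392) and Gad2 (0.0116) those of the neuronal list, and Cd68 (0.265) and Ms4a1 those of the leukocyte list. Ubiquitous genes had a median of 0.155, from Pgk1 (0.0429) to Eef2 (0.576).

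**Figure D4:**
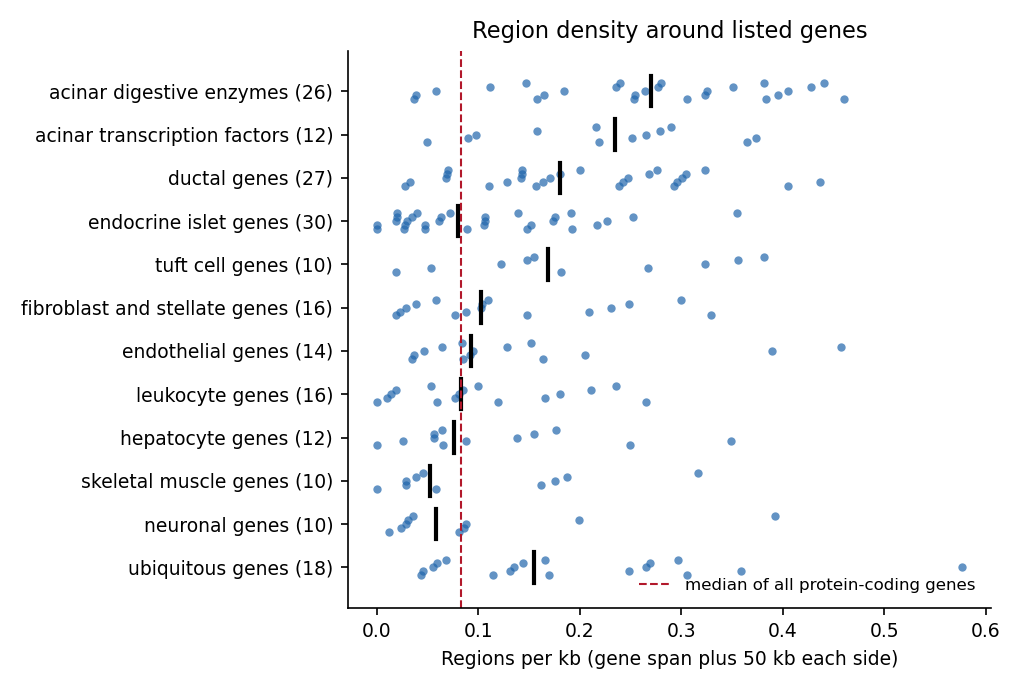
Regions per kb in each listed gene's span plus 50 kb on each side (horizontal axis; points are genes, number in brackets) by list, with list medians (black bars) and the median of all protein-coding genes (dashed line, 0.0827). Acinar enzyme genes have the median farthest to the right (0.270; 0.117, below ductal and acinar transcription factor genes, when close regions are merged) and skeletal muscle genes the one farthest to the left (0.0521).

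Promoters with an accessible region were richer in G+C. Of 21045 promoters of 17274 coding genes, taken as 250 bases before and 50 after the start, 63.6% were overlapped by a region. Their median G+C was 61.3% with 21 CpG, against 47.0% and 3 CpG without a region. The share overlapped was 5.61% in the decile of promoters lowest in G+C and 93.6% in the highest.

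Acinar enzyme promoters were open at low G+C. A region overlapped 18 of 22, although their median G+C was 48.7% with 3 CpG; in the decile of promoters with 46.3 to 50.3% G+C, 37.5% were overlapped. Fibroblast genes had 9 of 10 at 53.2% G+C and tuft genes 6 of 8 at 51.7%, where 55.1% of the decile was overlapped, so a share above that of like promoters was not particular to enzyme genes. Ubiquitous genes had 14 of 14 at 61.8%, endocrine genes 10 of 25 at 51.0%, leukocyte genes 2 of 13 at 49.0% and skeletal muscle genes 0 of 8 at 56.8%. The enzyme promoters without a region were those of Amy2a5, Cela3a, Prss1 and Prss3, all from families with near-identical copies.

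**Figure D5:**
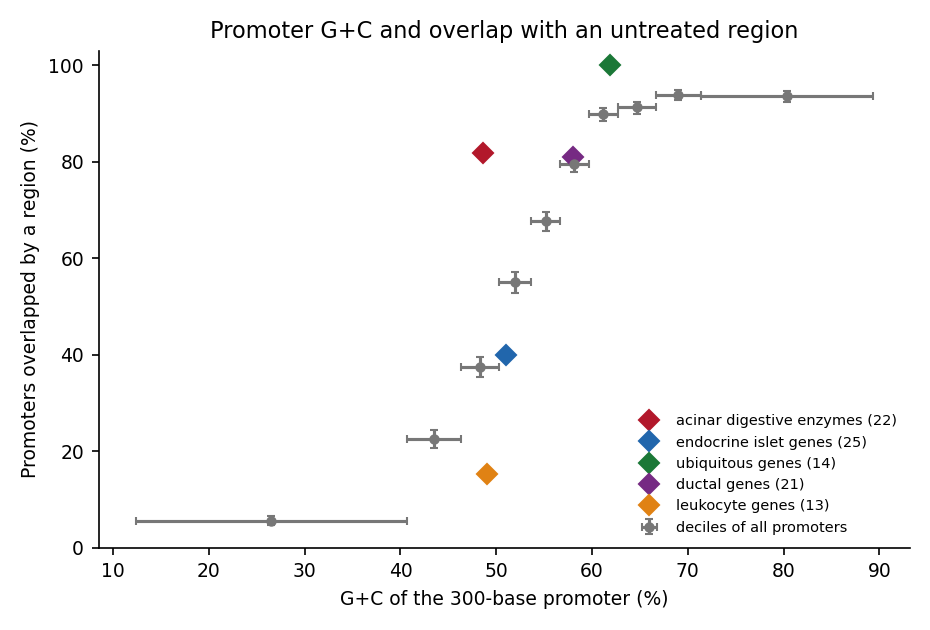
Percent of promoters overlapped by an untreated region (vertical axis) against promoter G+C in percent (horizontal axis). Circles are deciles of all promoters with their G+C range and exact 95% interval, rising from 5.61% to 93.6%; diamonds are 5 gene lists at their median G+C, with acinar enzymes at 81.8% and 48.7% G+C, above the deciles beside them.

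Among the enzyme promoters, TATAA at positions -40 to -16 on the gene's strand occurred in 7 of 22 (Amy2b, Amy2a5, Prss1, Prss3, Gp2, Cela1 and Pnlip) and in 4.23% of all promoters. The other motifs were sought on both strands of the 300 bases. CACCTG was in 12 of 22 against 19.9% of all promoters, TTTCCC in 10 against 25.4%, CAGCTG in 7 against 15.7%, AGATAA in 6 against 9.68%, CCAAT in 7 against 38.5% and TATAAA in 9 against 12.7%. The Sp1 GC box GGGGCGGGG was in none of the 22 and in 15.5% of all promoters, the NR5A2 element CAAGGTCA in 1 against 1.29%, and the HNF1 element in none against 0.0618%. CACCTG was also in 13 of 21 ductal promoters, and TTTCCC in 5 of 10 fibroblast and 6 of 14 ubiquitous ones. Among 8 skeletal muscle promoters, TATAA at positions -40 to -16 was in 3, CAGCTG in 4 and TATAAA in 3. CAGCTG was also in 5 of 13 leukocyte promoters, AGATAA in 4 of 13 hepatocyte and TATAAA in 5 of 14 ubiquitous ones. None of these shares was thus particular to enzyme genes. TATAAA can overlap TATAA. These are matches of letters, with no measure of binding.

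MicroRNA genes were examined with a short list chosen after the files had been read. Of 1005 hairpins in the RefSeq table, 18.8% were overlapped by a region, as were 7 of 18 on the list. The mature 3p arms of the miR-200 family, which maintains epithelial character, share their seeds (bases 2 to 8, in capitals) across a pair of gene clusters and are shown for that reason.
miR-200b-3p: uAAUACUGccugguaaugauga
miR-200c-3p: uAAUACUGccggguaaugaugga
miR-429-3p: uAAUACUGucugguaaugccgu
miR-141-3p: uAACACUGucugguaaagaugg
miR-200a-3p: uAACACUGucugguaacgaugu
The hairpins of miR-200c and miR-141 on chromosome 6 lay inside a 3843 bp region with a fold of 52.1 (46.5 to 58.1). In the other cluster, on chromosome 4, miR-200a lay in a region with a fold of 7.58 (5.57 to 10.1), and miR-200b and miR-429 lay 154 and 17 bp outside the nearest region. Each cluster carries both seeds, AAUACUG and AACACUG, and the chromosome 6 cluster had the higher fold.

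The mature arms below are of microRNAs abundant in the pancreas, which differ in the accessibility of their genes.
miR-148a-3p: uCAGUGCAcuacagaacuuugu
miR-216a-5p: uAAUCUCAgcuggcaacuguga
miR-216b-5p: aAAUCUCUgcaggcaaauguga
miR-217-5p: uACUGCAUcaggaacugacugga
The miR-148a hairpin lay inside a region with a fold of 65.4 (59.1 to 72.2), and that of miR-375, an islet microRNA, inside one with a fold of 148 (139 to 158), the 176th strongest. The hairpins of miR-216b, miR-216a and miR-217, a cluster known from acinar cells, lay 10931, 21752 and 28468 bp from the nearest region, which had a fold of 4.45. Mir223, a gene of myeloid cells, had no region within 50 kb.

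The X chromosome had fewer regions. It held 10.0 regions per Mb against 40.4 to 86.7 on the autosomes. A gene-end region was found for 43.4% of its genes against 67.2% on autosomes, the median of the strongest one per gene was 22.1 against 35.1, and the highest was 86.5 against 202. Over single regions the order was the other way: the median fold was 5.77 on X and 4.78 on autosomes, and that of gene-end regions 11.7 and 11.2. The share of X regions at gene ends was 31.7% against 14.6%. The sex of the animals is not given in the sources used here.

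Overlap with the later lists was found for 62.6, 68.0 and 72.9% of all untreated regions (days 1, 7 and 28). The shares were 82.3, 84.2 and 85.1% for gene-end regions and 59.1, 65.2 and 70.8% for distal ones. Each list was called on its own reads, with a lowest fold of 2.47 in the untreated list and of 2.36, 2.95 and 2.84 at days 1, 7 and 28, and the part of these floors in the shares was not tested. Of regions in the lowest decile of fold 41.2% were in no later list, and of those in the highest decile 0% were.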

How the data were processed

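ATAC-seq peak lists of 4 epithelial libraries, 1 per group, were used; groups came from the treatment labels. Per the submitters' processing notes the tools were MACS2 2.1.0.20150731, Bowtie2 2.2.6, deepTools, SAMtools and cutadapt, on build GRCm38 (mm10). Their options, duplicate removal, a shift to the transposase cut site or a mask of repeats: none is given in the sources used here. The authors' deposited columns used were the fold enrichment (a ratio) at the summit, −log10 p, −log10 q, the summit offset and a score, which equals 10 times −log10 q. Total reads per library are not in these lists. A background of 5.07 made 100% of pileups, taken as fold × (background + 1) − 1, whole within 0.05, and Poisson 95% intervals on fold come from the pileup. Intervals, also the Clopper-Pearson ones on shares, cover counting error only.

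A RefSeq table (GRCm38.p6) gave gene spans without exons or strand; starts, promoters and microRNAs came from RefSeq sequence tables of that build. Exons, introns and UTRs could not be separated. Of 202 listed genes in 12 lists 201 matched and 143 had a promoter sequence. The members and lists were chosen with earlier results of these data known; gene-span coverage, microRNAs and the lower-ranked wide regions were added after the files were read. Named were the 10 strongest and 10 widest regions with a coding gene within 50 kb, the 10 densest neighbourhoods, the 4 markers, any acinar, ductal or endocrine gene, and of each other list the 2 genes with most and the 2 with fewest regions per kb, of which most often 1 at each end is printed; other named genes are marked, and a few listed genes are not reported here. Overlap meant at least 1 bp. No p-value was computed, since every group is 1 library. Code was tested on simulated regions and its overlaps checked with bedtools 2.31.1. Python 3.11.15, pandas 2.3.3, numpy 2.4.6 and scipy 1.17.1 were used. Alternatives were a −log10 q of at least 5, gene-end windows of 500 bp and 2 kb, starts alone, regions less than 500 bp apart merged, windows of 10 and 100 kb, ranking by −log10 p, and overlap of 50% of a region.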

Additional observations from a re-analysis of the deposited data

Results flagged for a closer look

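The untreated list held 9 regions on the Y chromosome, which were left out of every count because the description was limited to chromosomes 1 to 19 and X. They were 159 to 1041 bp wide with folds of 3.46 to 23.6. They are listed here as a signal in data outside the main measurement.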

How the results depend on the processing

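Of 156 recomputed values for 51 results, 121 stayed within their interval or within 1.5 times and 35 moved. The gene-end share of all regions became 15.7% with the stricter threshold, 22.0% within 2 kb, 10.1% within 500 bp and 11.2% at gene starts alone, and the distal share 84.3%, 78.0% and 89.9% in the first 3 of these. Within 2 kb and 500 bp, the gene-end share became 85.7% and 76.4% of the strongest regions and 63.6% and 44.3% of the widest. Of the 10 densest neighbourhoods, 4 remained when close regions were merged, 3 with 10 kb windows and 5 with 100 kb windows. Merging lowered median regions per kb to 0.117 for acinar enzymes, 0.128 for acinar transcription factors, 0.110 for tuft, 0.0522 for fibroblast and 0.0473 for leukocyte genes, beside 0.0602 for all genes; so a part of the enzyme genes' density consisted of closely spaced regions. With 10 kb windows it was 0.464 for acinar enzymes and 0.0451 for leukocyte genes, and with 100 kb windows 0.127 for leukocyte and 0.0795 for muscle genes. The share of genes with a gene-end region became 100% for ductal genes within 2 kb, and 100% for fibroblast, endothelial and ubiquitous genes at starts alone, where only genes with a listed start count. For all coding genes it was 64.7% with the stricter threshold, 70.9% within 2 kb and 59.3% within 500 bp. Asking for 50% overlap left 56.5%, 60.3% and 66.7% of regions present at days 1, 7 and 28. Among genes of 1 to 20 kb, 60% of acinar transcription factor genes and 7.03% of all genes were at least 50% covered. Alternatives for gene-span coverage and for promoter G+C were chosen after seeing the data. For the other moves the cause was not tested. No paired analysis was possible because each group has 1 library and no result comes from a test. Depth limits weak regions: a fold near 3 rests on fewer than 20 reads.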
